A study of Bos taurus with 11 samples.

Results

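DIRAS3 (ENSBTAG00000012182) encodes a small GTPase of the Ras family that acts as a growth suppressor. It was described here as 1 gene of the 21996 counted and of the 13960 tested in liver RNA of lactating cows. The gene was chosen by its own group difference: among genes for which every cow in severe negative energy balance lay below every cow in mild negative energy balance, it had the largest fall. The same counts therefore selected it, and its difference between the groups is given below as a description, with no test.

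The counts came from polyA RNA of whole liver from 11 multiparous Holstein-Friesian cows killed in early lactation, all labelled as day 14 post calving. By the study's methods the actual day differed somewhat between cows and overlapped between the groups. Negative energy balance is the state in which the energy spent on milk and maintenance exceeds the energy eaten. The 5 cows in mild negative energy balance (MNEB) had unrestricted silage with a set amount of concentrate and were milked at the lower frequency. The 6 cows in severe negative energy balance (SNEB) had a restricted diet and were milked more often. The cows came from larger groups, and those sequenced were picked for extremes of energy balance. The study also sequenced a further MNEB library but left it out of its comparison, because that cow later fell ill. Diet and milking frequency changed together, so their parts in any difference between the groups cannot be told apart.

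In humans, DIRAS3, also known as ARHI, is imprinted and is expressed from the paternal allele only. Unlike most Ras proteins, which promote growth when bound to GTP, it restrains Ras signalling to the MAP kinases and through PI3K and AKT, and it can hold STAT3 in the cytoplasm. It also promotes autophagy, the digestion of a cell's own material in lysosomes, in part by binding BECN1 in the complex that starts the autophagosome. Most of this is known from human tumour cells rather than from the liver of ruminants.

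Reads on genes numbered between 1774011 and 4005322 per MNEB cow (median 3369237) and between 1869837 and 6852142 per SNEB cow (median 3941504). They came from 19 lanes on 3 flow cells, and lanes of the same library were summed. Levels are given as CPM, the counts scaled by each cow's reads on genes and its TMM factor, and 1 read was worth between 0.144 and 0.591 CPM. The cow MNEB2 had 82.8% of all reads on a haemoglobin gene and the highest DIRAS3 level of the 11 cows. The MNEB mean, the ratio of means, the fitted fold change and the spread of DIRAS3 are therefore given with and without it. Some other values that include MNEB2 are given only with it.

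DIRAS3 was detected in the liver of all 11 cows and was several-fold lower in SNEB than in MNEB cows. In MNEB cows it was counted with 60 reads in MNEB1, 92 in MNEB2, 40 in MNEB3, 28 in MNEB4 and 65 in MNEB5. These were 14.7, 47.8, 23.7, 8.36 and 16.4 CPM in the same order. In SNEB cows the counts ran from 3 reads in SNEB3 to 16 in SNEB1 and SNEB4, and the levels from 1.61 CPM in SNEB3 to 3.63 in SNEB1, with a median of 2.26. The groups did not overlap, since MNEB4, the lowest MNEB cow, was at 8.36 CPM and SNEB1, the highest SNEB cow, at 3.63 CPM. That separation was part of the choice of the gene. It was shared by 75 of the 13960 genes tested (0.537%) in this direction.

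The mean level was 22.2 ± 15.3 CPM (SD, n = 5) in MNEB and 2.38 ± 0.766 CPM (SD, n = 6) in SNEB cows. The ratio of the means, MNEB over SNEB, was 9.32, and that of the medians was 7.28. The log2 fold change fitted by edgeR, SNEB over MNEB, was -3.12 (SE 0.41), which is 8.67-fold. This SE and those below were worked back from the F statistic of edgeR's quasi-likelihood test. For a gene chosen on these counts the SE is no evidence of a difference. Without MNEB2 the MNEB mean was 15.8 ± 6.29 CPM (SD, n = 4), the ratio of the means was 6.63 and the fitted log2 fold change was -2.64. In bulk liver, fewer cells that express DIRAS3 and less DIRAS3 RNA per cell cannot be told apart.

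**Figure D1:**
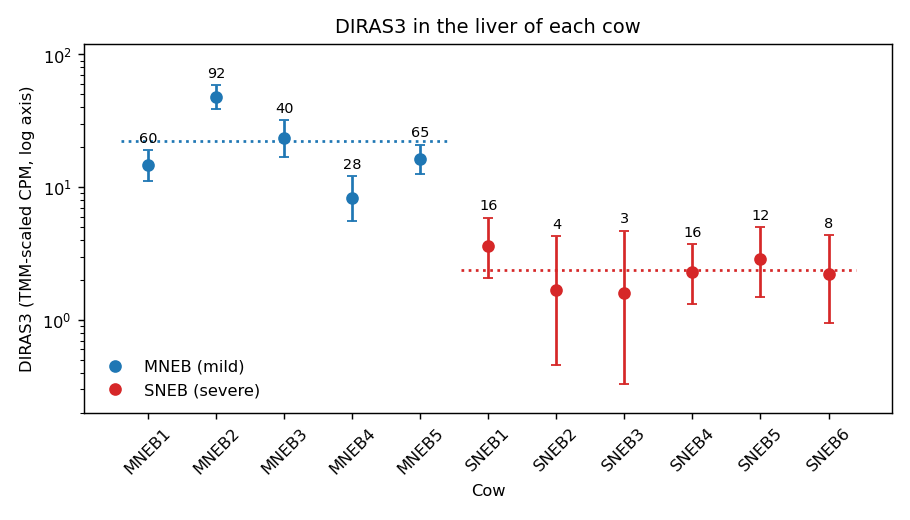
DIRAS3 in each cow, in TMM-scaled CPM on a log axis, with the reads of each cow written above it. Bars are exact 95% Poisson intervals of the count and dotted lines are the group means, 22.2 CPM in MNEB (blue) and 2.38 CPM in SNEB cows (red); MNEB4 at 8.36 and SNEB1 at 3.63 are the cows of the 2 groups that lie closest.

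Depth limited the SNEB values far more than the MNEB values. Over all cows of a group, 285 reads on DIRAS3 were counted in MNEB and 59 in SNEB cows. At the SNEB mean, 4.03 reads were expected in the library with the smallest scaled total, and at the MNEB mean 37.5. A floor of 3 reads corresponded to between 0.433 and 1.61 CPM in the SNEB cows, and SNEB3 lay exactly on its floor. The exact 95% Poisson interval was 0.332 to 4.70 CPM for SNEB3 and 0.455 to 4.27 CPM for SNEB2, against 38.5 to 58.6 CPM for MNEB2. Such intervals cover counting error only, since the reads carried no molecular identifiers.

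From lowest to highest, the cows ran in the order SNEB3, SNEB2, SNEB6, SNEB4, SNEB5, SNEB1, MNEB4, MNEB1, MNEB5, MNEB3 and MNEB2. The intervals of 9 of the 10 pairs of neighbours in this order overlapped. The exception was MNEB3, with an upper bound of 32.2 CPM, and MNEB2, with a lower bound of 38.5. Across the groups, the intervals overlapped in 1 of 30 pairs of an MNEB and an SNEB cow, namely MNEB4 (lower bound 5.55 CPM) and SNEB1 (upper bound 5.90). Overlap of such intervals is not a test of the difference between 2 cows.

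The spread between MNEB cows rested in large part on MNEB2. In MNEB cows the highest level was 5.72 times the lowest and the coefficient of variation was 69.0%, and without MNEB2 these were 2.83 times and 39.8%. In SNEB cows the highest was 2.26 times the lowest and the coefficient of variation was 32.2%. The variance of the counts over that of Poisson counting at the same totals was 27.8 in MNEB cows, 6.37 without MNEB2, and 0.786 in SNEB cows. A value above 1 is usual between separate animals, and none of these was tested. At 3 to 16 reads per SNEB cow, differences between livers could not be separated from counting error, and all 6 intervals shared the range from 2.08 to 3.75 CPM. The choice of the gene also limited how high an SNEB value could be. The biological coefficient of variation that edgeR estimated for DIRAS3 was 43.3%, where the trend over genes of its level gave 32.6%. The gap from MNEB2 to MNEB3 was 0.612 of the range of the MNEB cows. The same values chose the gene, so no verdict on MNEB2 as an outlier is drawn from it.

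Agreement between lanes of the same library did not enter the choice of the gene and could be tested. Each of the 19 lanes held reads on DIRAS3. In lane CPM, relative to the lane's own reads on genes, the 8 lanes of MNEB cows ran from 4.91 to 46.1 and the 11 lanes of SNEB cows from 1.21 to 5.47. At the level of lanes the groups overlapped. The second lane of MNEB4, with 6 reads, was lower than the flow cell B lane of SNEB1, with 11 reads.

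Of the 11 libraries, 7 were run on more than 1 lane, and their highest lane was between 1.02 and 2.40 times their lowest. MNEB2, MNEB3, SNEB2 and SNEB3 were each run on 1 lane, so lane agreement covers neither the highest nor the lowest DIRAS3 levels. MNEB5 had 16.6 and 16.3 CPM in its lanes (two-sided exact binomial test, p = 1), and MNEB1 had 17.5 and 12.5 CPM (p = 0.200, same exact test). The smallest p-values were those of MNEB4, with 10.2 and 4.91 CPM (exact binomial test, p = 0.118), and SNEB1, with 5.47 and 2.28 CPM (exact binomial test, p = 0.132). For SNEB5 and SNEB6 the exact binomial p was 0.399 and 0.313, and for the 3 lanes of SNEB4 the exact multinomial p was 0.494. After Benjamini-Hochberg adjustment over the 7 libraries, the exact p-values ran from 0.461 to 1, so no difference between lanes beyond counting error was detected. With 8 to 65 reads per library these tests could miss a moderate difference. Lanes of a library are not new samples of the animal, and reads of the same molecule can be counted once in each lane. The lanes of MNEB4 and of SNEB4 were also loaded at different concentrations, so lane and concentration cannot be told apart.

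**Figure D2:**
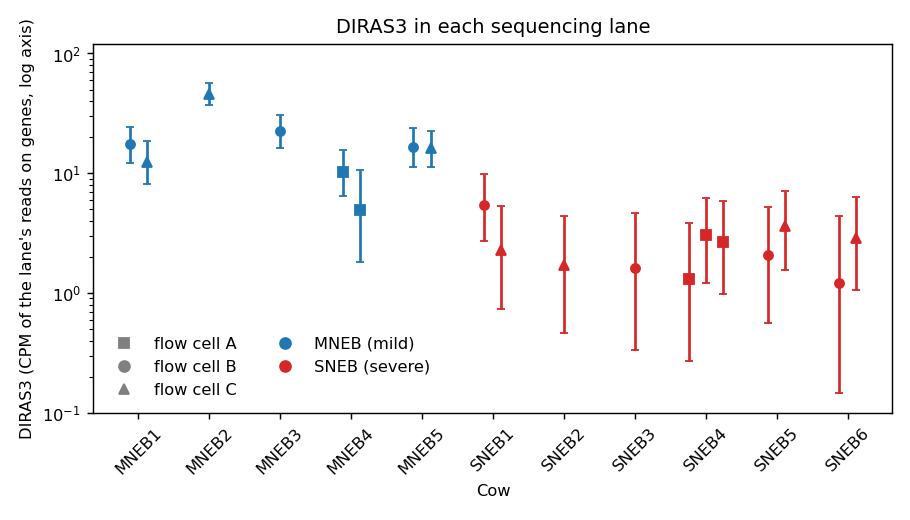
DIRAS3 in each of the 19 lanes, as CPM of the lane's reads on genes on a log axis, with exact 95% Poisson intervals as bars and the flow cell as the marker. The intervals of lanes of the same library overlap, and the lower lane of MNEB4 (4.91 CPM) lies below the flow cell B lane of SNEB1 (5.47 CPM).

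Within flow cells the values are a description of the same counts that chose the gene, so their direction, which on flow cell A the choice itself fixes, is no further evidence. On flow cell A, where 1 cow of each group was analysed, MNEB4 and SNEB4, the levels were 8.31 and 2.34 CPM, a log2 ratio of -1.83. On flow cell B, 3 MNEB cows had a mean of 18.9 and 4 SNEB cows a mean of 2.59 CPM, a log2 ratio of -2.87. On flow cell C, which included MNEB2, the means of 3 MNEB and 4 SNEB cows were 25.0 and 2.63 CPM, a log2 ratio of -3.25. Without MNEB2 the MNEB mean on flow cell C was 14.4 CPM, from 2 cows, and the log2 ratio was -2.45. Some libraries were run on both flow cells B and C, so these ratios share cows. MNEB4, the lowest MNEB cow, was the only MNEB cow analysed here from flow cell A, so cow and flow cell cannot be told apart.

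**Figure D3:**
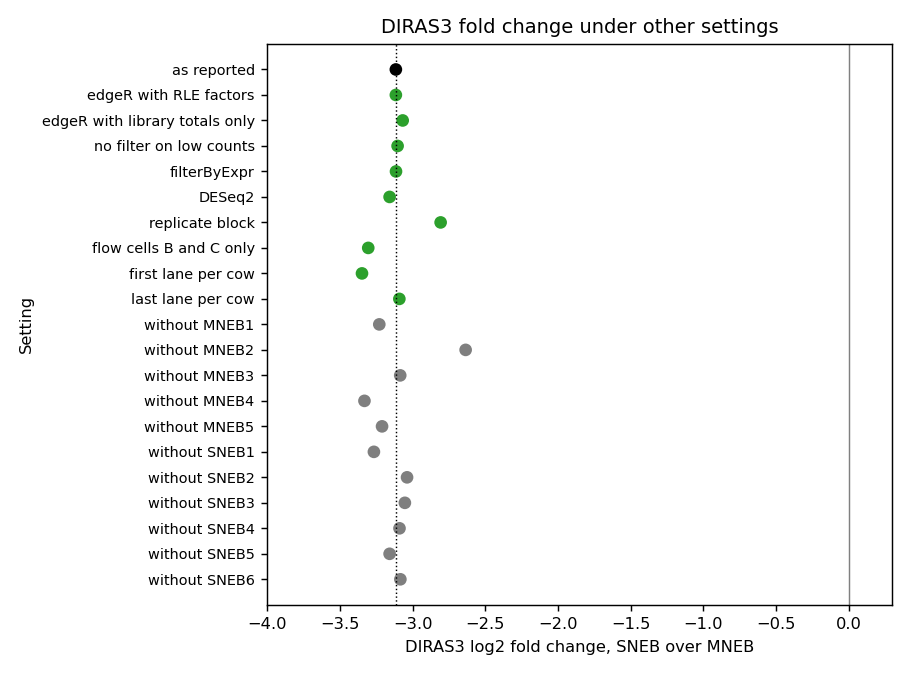
The log2 fold change of DIRAS3, SNEB over MNEB, as reported (black, dotted line), under 9 other ways of processing (green) and without each cow in turn (grey). The values lie between -3.35, with the first lane of each cow, and -2.64, without MNEB2. The same cows chose the gene, so their shared direction is no further evidence.

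Before the condition that the groups do not overlap, DIRAS3 had the eighth largest fitted fall over all genes tested. Each of the 7 genes with a larger fitted fall had groups that overlapped and between 51.9% and 82.8% of its reads in a single cow. For PRSS3, a trypsinogen, and for the haemoglobin gene that cow was MNEB2. DIRAS3 had 26.7% of its reads in MNEB2. The gene just outside the choice, with the next largest fall among those whose groups did not overlap, was SERPINA6 (ENSBTAG00000039808), the corticosteroid-binding globulin of plasma. The groups overlapped for the 3 genes ranked between DIRAS3 and SERPINA6. SERPINA6 ran from 153 to 240 CPM in MNEB cows and from 11.8 to 55.5 CPM in SNEB cows, with a fitted log2 fold change of -2.50. Within the MNEB group SERPINA6 was highest in MNEB1 rather than MNEB2, and with group means removed its r with DIRAS3 was -0.026 over 11 cows.

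Genes with the pattern most like that of DIRAS3 were sought by Pearson's r of log2(CPM + 0.5) over the 11 cows, among 11846 genes with a mean of at least 10 reads per cow. As the cows form 2 groups that do not overlap in DIRAS3, this r is high for genes that differ between the groups, and it is a description only. The highest r was 0.932, for ENSBTAG00000004803 (0.958 without MNEB2), a gene with 109 ± 5.64 CPM (SD, n = 5) in MNEB and 89.1 ± 4.62 CPM (SD, n = 6) in SNEB livers. Its log2 fold change of -0.28 was thus far smaller than that of DIRAS3. All of the 5 likest genes had lower means in SNEB cows, and 2 of them had a name.

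AC022098.1 (ENSBTAG00000016936, named after a human clone) followed DIRAS3 with r of 0.905, or 0.874 without MNEB2. It had 11.0, 17.2, 11.2, 6.87 and 8.59 CPM in MNEB1 to MNEB5. In SNEB cows it ran from 1.25 to 6.36 CPM with a median of 4.16. As for DIRAS3, MNEB2 was the highest and MNEB4 the lowest MNEB cow, and the groups did not overlap. Its log2 fold change was -1.44 (SE 0.35), and -1.24 without MNEB2. As the gene was picked for its r with DIRAS3 on these cows, its group difference is a description too and gets no test.

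SLC22A10 (ENSBTAG00000037570), of the organic anion transporter family, had r of 0.880, or 0.885 without MNEB2. Its levels in MNEB1 to MNEB5 were 5.39, 8.83, 12.4, 8.36 and 5.81 CPM, and in SNEB cows they ran from 1.07 to 3.10 CPM with a median of 1.94. The highest cow here was MNEB3, and the counts were as low as 2 reads. The groups did not overlap, and the log2 fold change was -1.88 (SE 0.32), likewise a description. With group means removed its r with DIRAS3 was 0.294. The family has close relatives, and reads with more than 1 alignment were dropped, so its counts are uncertain.

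With the mean of each group removed, so that only differences between cows of the same group count, the likest genes were others. With 3 to 16 reads on DIRAS3 per SNEB cow, differences between SNEB cows could not be separated from counting error. This limits every r within groups. The 5 highest over 11 cows shared 0 genes with the former 5, and none of them had a name. The highest were ENSBTAG00000039968 (r of 0.948) and ENSBTAG00000005349 (0.926), at 0.986 and 0.928 without MNEB2. Their means hardly differed between the groups, at 24.7 CPM in both for the former and 8.69 and 8.58 CPM in MNEB and SNEB cows for the latter. The 5 genes that best follow DIRAS3 across cows of a group were thus not the 5 that best follow it over all cows.

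The likest named gene within groups was DDIT4 (ENSBTAG00000000163), an inhibitor of mTORC1 induced by stress and glucocorticoids, which was singled out after its values were seen. Its r within groups was 0.864, or 0.735 without MNEB2, and over the 11 cows with group means kept it was 0.799, or 0.665 without MNEB2. Of the 11846 genes compared, 33 had an r within groups over 0.8, and how many would reach it by chance was not tested, so DDIT4 is not set apart by its r. DDIT4 had 173, 307, 145, 46.0 and 80.1 CPM in MNEB1 to MNEB5 and ran from 54.7 to 90.1 CPM in SNEB cows, with a median of 61.6. MNEB2 was highest and MNEB4 lowest among MNEB cows, as for DIRAS3. The groups overlapped, since MNEB4 lay below every SNEB cow. Its log2 fold change was -1.15 (SE 0.36), and -0.72 without MNEB2. Only genes that the study had selected for a difference between these cows have a name, so the group difference of DDIT4 is a description as well, with no test.

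**Figure D4:**
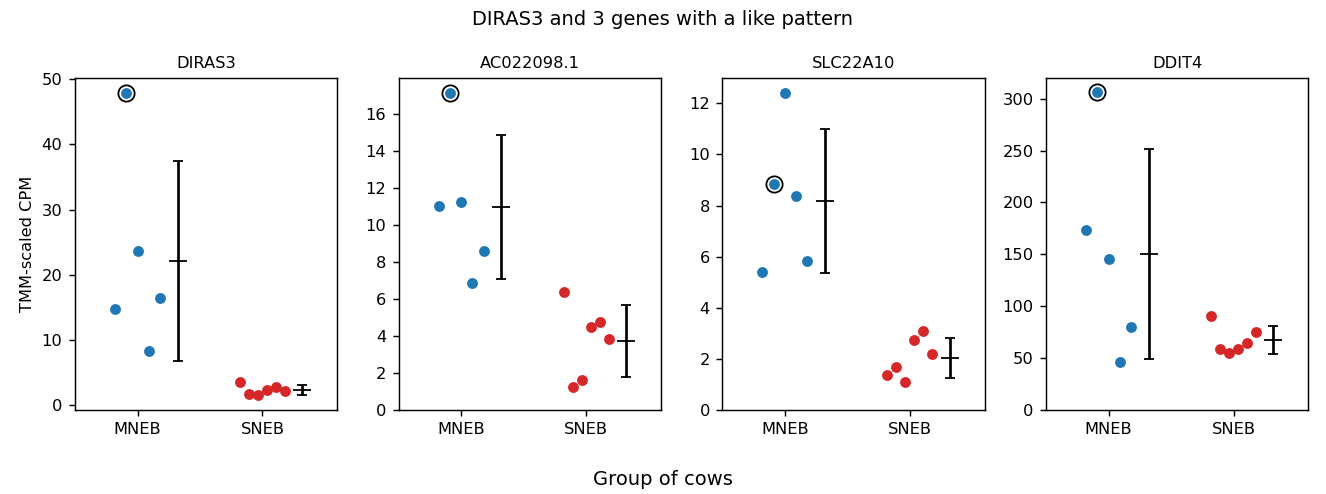
TMM-scaled CPM of DIRAS3, AC022098.1, SLC22A10 and DDIT4 in each MNEB (blue) and SNEB (red) cow, with the mean and SD of each group in black and MNEB2 ringed. MNEB2 is the highest cow for DIRAS3 (47.8), AC022098.1 (17.2) and DDIT4 (307), and not for SLC22A10.

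The other genes of the pathways in which DIRAS3 acts could be followed only in small part. Names were taken from a table of 413 genes that the study had selected on the same SNEB and MNEB cows, so a gene with a name there is not independent evidence of a difference. The adjusted p-values given below for the list genes and for MARCO carry the same limit. Of 138 listed genes, 3 had an identifier. They were 0 of 34 relatives in the Ras family, DIRAS1 and DIRAS2 among them, 1 of 32 genes of Ras and PI3K signalling, 0 of 39 autophagy genes and 2 of 33 imprinted genes. BECN1 and STAT3 had none, so their levels are not given here. In the comparison of SNEB with MNEB cows, edgeR called 0 of the 3 higher and 0 of the 3 lower, against a background of 0.33% of all genes tested called higher and 0.215% called lower. DESeq2 called 0 of the 3, against 2.08% of all genes tested. At an unadjusted p under 0.05, edgeR and DESeq2 each gave 2 of the 3, where all genes tested gave 8.35% and 8.44%, and nothing is read from this, as the names cover only genes that the study had selected for their difference. The median log2 fold change of the 3 genes was 1.06, and that of all genes tested was -0.009.

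CDKN1A (ENSBTAG00000008353), the cyclin-dependent kinase inhibitor p21, is the member of the signalling list. It had 306, 438, 306, 144 and 425 CPM in MNEB1 to MNEB5 and ran from 112 to 293 CPM in SNEB cows, with a median of 199. MNEB2 was again the highest and MNEB4 the lowest MNEB cow, but the groups overlapped. CDKN1A differed by -0.68 on the log2 scale (SE 0.26) and missed the limit of 0.1 that was set for adjusted p-values (adjusted p = 0.440, edgeR quasi-likelihood with Benjamini-Hochberg). Without MNEB2 its log2 fold change was -0.55.

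ZDBF2 and DLK1 are imprinted genes expressed from the paternal allele, as DIRAS3 is in humans. ZDBF2 (ENSBTAG00000031166), which encodes a zinc finger protein, had 1.72, 3.12, 1.18, 2.39 and 3.03 CPM in MNEB1 to MNEB5. In SNEB cows it ran from 2.92 to 11.7 CPM, with a median of 4.80. Its mean was thus higher in SNEB cows, opposite in direction to DIRAS3, with MNEB counts of 2 to 12 reads, and the groups overlapped narrowly. On the log2 scale ZDBF2 differed by 1.36 (SE 0.38) and did not pass (adjusted p = 0.211, edgeR quasi-likelihood with Benjamini-Hochberg).

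DLK1 (ENSBTAG00000037899), a membrane protein related to the Notch ligands, had 20.8, 1.04, 1.18, 9.55 and 13.6 CPM in MNEB1 to MNEB5 and ran from 2.09 to 44.3 CPM in SNEB cows, with a median of 18.8. MNEB2, the highest cow for DIRAS3, and MNEB3 each had only 2 reads on DLK1, and the groups overlapped. DLK1 differed by 1.06 on the log2 scale (SE 0.68) and did not pass (adjusted p = 0.754, edgeR quasi-likelihood with Benjamini-Hochberg).

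**Figure D5:**
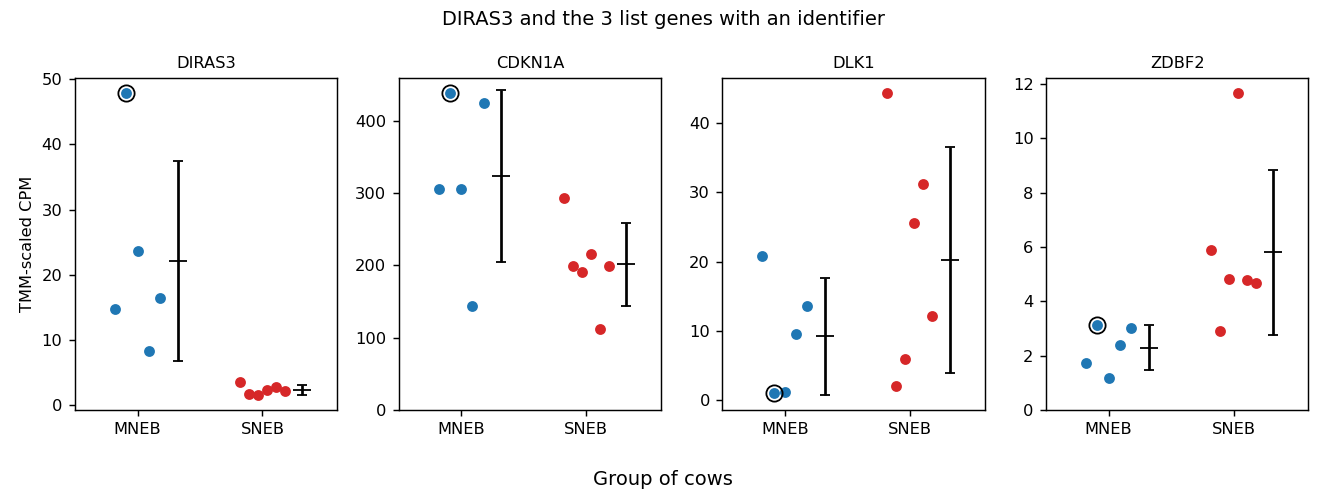
TMM-scaled CPM of DIRAS3, CDKN1A, DLK1 and ZDBF2 in each MNEB (blue) and SNEB (red) cow, with the mean and SD of each group in black and MNEB2 ringed. The groups overlap for the latter 3 genes, and MNEB2 is highest for CDKN1A (438) and, with MNEB3, low for DLK1 (1.04 and 1.18).

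Markers of liver cell types could be followed for 2 of 60 genes, so the label of the tissue could not be checked against hepatocyte genes, of which 0 of 14 had an identifier. The same held for 0 of 6 genes of bile duct cells, 0 of 8 of endothelium, 0 of 10 of stellate cells, fibroblasts and smooth muscle, and 0 of 5 of adipocytes. MARCO (ENSBTAG00000018473), a scavenger receptor of macrophages and 1 of 11 macrophage and leukocyte markers, had 97.3, 224, 62.7, 140.0 and 172 CPM in MNEB1 to MNEB5. In SNEB cows it ran from 41.3 to 178 CPM, with a median of 84.0. MNEB2 was again the highest cow, but MNEB3, next to it in DIRAS3, was the lowest MNEB cow, and the groups overlapped. With group means removed, the r of MARCO with DIRAS3 was -0.047 over 11 cows. MARCO differed by -0.64 on the log2 scale (SE 0.38), short of the limit (adjusted p = 0.712, edgeR quasi-likelihood with Benjamini-Hochberg). Without MNEB2 its log2 fold change was -0.41.

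The haemoglobin gene (ENSBTAG00000038748, HBB by its bovine and HBD by its human name), 1 of 6 erythroid markers, had 96 reads in MNEB2 and at most 5 in any other cow. That was 49.9 CPM in MNEB2, the cow with the highest DIRAS3 level, and at most 1.19 CPM in the other cows. The haemoglobin genes are near-identical copies, so its counts are uncertain. The difference of DIRAS3 without MNEB2 was -2.64 on the log2 scale. The part of blood or macrophages in the level of MNEB2 was not tested.

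In RefSeq annotation of the assembly ARS-UCD2.0, which is not the build used for the counts, DIRAS3 lies between WLS and GNG12, and 0 annotated genes overlapped it. The 5 protein-coding genes before it were WLS, RPE65, LOC101907544, DEPDC1 and LRRC7, and the 5 after it GNG12, GADD45A, SERBP1, IL12RB2 and IL23R. Of these 10 neighbours, 0 had an identifier in the names used, so whether genes around DIRAS3 differ with it was not tested. The setting for strand in the counting is not given in the sources used here, and reads from an unannotated antisense transcript could not be separated from those of DIRAS3.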

How the data were processed

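Reads of each lane had been mapped by the authors with Bowtie to assembly BCM4. Those that mapped to several places were discarded, as were all but 1 of those sharing a position, and HTSeq in union mode assigned the remainder to Ensembl genes. The submitters' processing notes also name CASAVA 1.4 and SAMtools. The deposited values are raw counts. Because positions were made unique per lane, counts are limited from above.

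Lanes were summed per cow. Genes that reached 5 reads in any cow, 13960 in number, entered the quasi-likelihood test of edgeR 4.0.16 (R 4.3.3, TMM scaling, Benjamini-Hochberg adjustment, called at an adjusted p under 0.1). DESeq2 1.42.0 was an alternative, beside other scalings and filters, 1 lane per cow, flow cells B and C only, a replicate block and leaving out each cow. The scripts were tested on simulated data. Plots were drawn with matplotlib 3.10.9.

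Names came from the name columns of a supplementary table of the study. The genes named were DIRAS3, the next largest fall with groups apart and at least 10 reads per cow, DIRAS1, DIRAS2, BECN1, STAT3, the neighbours, the called members and largest changes of each list, the 5 likest genes by each measure and the most abundant marker of each list. The members and lists were chosen with earlier results of these data known.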

Additional observations from a re-analysis of the deposited data

Results flagged for a closer look

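For DIRAS3, the 3 list genes and the 2 markers, each group of cows was checked for a cow far from the others, 12 groups in all. Of these, 2 held such a cow. Chance alone would give about 1 in 20, but the tally cannot be judged against that rate. The values of DIRAS3 chose that gene, so no verdict on any cow is drawn from its groups. The other genes have names only because the study had selected them on these cows. The lists were also chosen with earlier results of these data known. ZDBF2 had 11.7 CPM in SNEB4, where the SNEB median was 4.80, and the gap to the next cow was 0.66 of the group's range. The haemoglobin gene had 49.9 CPM in MNEB2, where the MNEB median was 0.736, with a gap of 0.98 of the range. The cause of either value was not tested.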

How the results depend on the processing

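The log2 fold change of DIRAS3 was -3.12 and ran from -3.35 to -2.81 over 9 alternatives, and from -3.33 to -2.64 when each cow was left out in turn, the smallest being without MNEB2. The use of the last lane of each cow, the ratios within flow cells and the ratios of means without MNEB2 were chosen after the data were seen. DIRAS3 was chosen with its groups apart on these same cows, so its direction with a cow left out is no further evidence. The count of genes called, 76 of 13960, also varied, and a count at a threshold is not comparable with a fold change. DESeq2 called 290 (176 higher and 114 lower) and flow cells B and C alone, with MNEB4 and SNEB4 left out, gave 34. With a cow left out it ran from 40 to 125, with 125 without MNEB1, 120 without SNEB3, 50 without MNEB3 and 40 without MNEB5. The cause was not tested.

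With the replicate block, 80 genes were called, the log2 fold change of DIRAS3 was -2.81, and 1 of the 3 list genes was called (DLK1, log2 fold change 1.29, edgeR adjusted p = 0.0606, range 0.0606 to 0.997). Cows of the same number shared only a number, as the r of their deviations ran from -0.078 to 0.389 over 5 pairs, and 1 of 5 MNEB cows matched its own number best.

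The likest genes depended on single cows and on lanes and scaling. Of the 5 over all cows, 1 to 4 were kept with a cow left out, and of the 5 within groups 2 to 4. Without MNEB2 these were 1 and 2, with the first lane of each cow 1 and 1, with the last lane 1 and 2, and with library totals 3 and 3. The haemoglobin gene was not tested under the filter of edgeR's filterByExpr, as its counts were too low. Depth limits the SNEB level of DIRAS3, which rests on 3 to 16 reads per cow.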
